A study of Rattus norvegicus with 18 samples.

Results

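Hspa5 and Ddit3 are 2 genes of the endoplasmic reticulum (ER) stress response, chosen here by their Ensembl rat identifiers, ENSRNOG00000018294 and ENSRNOG00000006789, out of 27654 genes in the deposited count table. Both had reads in every one of the 18 libraries, and both passed the filter on low counts, which 14920 genes passed. The libraries are RNA-seq of sorted cells from rat pancreatic islets, the clusters of endocrine cells in the pancreas, which were kept overnight in RPMI1640 with 10% FBS and 11.1 mM glucose and given 10 micromolar EdU, a thymidine analogue taken up during DNA synthesis. All groups had this culture and EdU exposure, and the rats differed by age (old or young) and the sorted cells by replicative status (quiescent or replicative), which gives 4 libraries each of old quiescent and old replicative cells and 5 each of young quiescent and young replicative cells. The series text names them as beta cells, the insulin-producing cells of the islet, from 9 batches of islets with 2 rats pooled in each, and a batch supplied both states, so quiescent and replicative libraries share rats. The labels number the libraries within a group without saying which numbers share a batch. No strain, sex, age in weeks or sorting gate was named in the sources at hand. The labels name the material as pancreatic islets, and this was not checked against marker genes because the files pair no identifier with a gene name.

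The ER of a beta cell folds and processes proinsulin, and unfolded protein there sets off the unfolded protein response through the sensors PERK, IRE1 and ATF6. Hspa5 encodes BiP (GRP78), the main Hsp70 chaperone of the ER lumen, which binds unfolded chains and also holds the sensors inactive, and ATF6 and XBP1 raise its transcription. Ddit3 encodes CHOP, a transcription factor of the C/EBP family that is induced downstream of PERK, eIF2alpha phosphorylation and ATF4, and that is known for promoting cell death under lasting ER stress. The first is thus the classical readout of the folding side of the response and the second of its PERK and integrated stress side.

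The promoters of the 2 genes are shown because both genes are textbook transcriptional targets of the response. The 250 bases before each RefSeq start (build GRCr8, plus strand, 5′ to 3′) lie at chr3:38452766-38453015 for Hspa5 and chr7:65001445-65001694 for Ddit3, and the capitals mark matches to 4 motifs searched on both strands. These were the ER stress response element ERSE (CCAAT, 9 bases of any kind, CCACG), ERSE-II (ATTGG, 1 base, CCACG), the ATF/CRE core TGACGT, and the C/EBP-ATF response element (TGATG, 1 base, AA).

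Hspa5: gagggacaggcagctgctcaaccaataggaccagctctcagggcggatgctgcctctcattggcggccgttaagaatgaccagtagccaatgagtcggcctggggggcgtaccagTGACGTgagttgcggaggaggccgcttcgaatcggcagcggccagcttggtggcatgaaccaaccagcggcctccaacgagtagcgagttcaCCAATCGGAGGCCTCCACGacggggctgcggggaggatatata

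Ddit3: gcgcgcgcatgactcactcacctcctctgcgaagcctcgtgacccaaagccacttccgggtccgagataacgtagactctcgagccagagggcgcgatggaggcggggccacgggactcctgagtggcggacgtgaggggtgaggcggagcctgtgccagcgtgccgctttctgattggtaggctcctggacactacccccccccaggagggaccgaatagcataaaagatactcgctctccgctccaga

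The Hspa5 window held 1 ERSE, which begins 43 bases before the start, and 1 ATF/CRE core, which begins 135 bases before it. The ERSE was present in 22 of 33469 rat promoter windows of 300 bases (0.0657%) and the ATF/CRE core in 2658 (7.94%). The Ddit3 window had none of the 4 motifs in these exact letters. Near matches and bases farther upstream were not searched, so this does not show that Ddit3 lacks such elements. ERSE-II was found in 0.0508% and the C/EBP-ATF element in 3.98% of all windows. In the same annotation Ddit3 overlaps Mars1, which encodes methionyl-tRNA synthetase, and an unnamed locus, LOC134479709. The counts are per Ensembl gene and the submitters name build rn6, whose annotation was not examined for overlaps. Whether the authors counted by strand was not stated in the sources at hand. If the overlap also holds in the annotation used for counting, some Ddit3 counts could belong to these neighbours. Hspa5 overlaps 0 other genes there.

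Total counts per library ran from 2723660 to 14222719. Replicate 3 of the old replicative group was the shallowest of its group at 2975086 counts and held the fewest detected genes of all libraries when thinned to equal depth, 11732. The other 3 old replicative libraries held 12435 to 16706 detected genes, old quiescent libraries 15057 to 16993, young quiescent ones 16045 to 22219 and young replicative ones 13915 to 21708. Old replicative libraries were also the least alike, with mean Spearman correlations to their own group of 0.667 to 0.755, against 0.842 to 0.974 in the other groups. The part of these library differences in the results below was not tested. Levels are given as CPM, counts relative to library size, after scaling by trimmed mean of M values (TMM). In such bulk samples, fewer cells that make a transcript cannot be told apart from less of it per cell.

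Hspa5 stood at 10072 ± 5442 CPM in old quiescent cells (SD, n = 4), 4920 ± 2738 CPM in young quiescent cells (SD, n = 5), 3903 ± 2480 CPM in old replicative cells (SD, n = 4) and 2946 ± 1044 CPM in young replicative cells (SD, n = 5). It took on average 0.859% ± 0.410 of counts in old quiescent libraries (SD, n = 4) and 0.312% ± 0.0966 in young replicative libraries (SD, n = 5). The order of the means ran from old quiescent to young replicative, but every group overlapped its neighbour in that order. In none of the 4 comparisons of groups did either gene have groups without overlap, while 16.5% of all genes did between the 2 states in old islets, 7.09% between the states in young islets, 6.07% between the ages in quiescent and 6.37% in replicative cells. The difference between young quiescent and old replicative cells was not tested.

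In old quiescent libraries 1 to 4, Hspa5 was at 3690, 7609, 15705 and 13285 CPM. In old replicative libraries 1 to 4 it was at 1899, 1840, 6913 and 4961 CPM. Libraries 1 and 2 of the replicative group lay below all 4 quiescent libraries, while 3 and 4 lay above quiescent library 1, so the groups overlapped. In young quiescent libraries 1 to 5 it was at 3303, 3390, 3125, 9582 and 5200 CPM. In young replicative libraries 1 to 5 it was at 2090, 2621, 2135, 4604 and 3279 CPM. Replicates 1 to 3 of the young replicative group lay below every young quiescent library, and replicates 4 and 5 did not. In both young groups replicate 4 was the highest library and replicate 5 the second highest. In both old groups replicates 3 and 4 were the highest.

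Ddit3 stood at 153 ± 45.8 CPM in old quiescent cells (SD, n = 4), 144 ± 43.9 CPM in young quiescent cells (SD, n = 5), 134 ± 48.3 CPM in young replicative cells (SD, n = 5) and 68.2 ± 43.1 CPM in old replicative cells (SD, n = 4). The first 3 groups differed by less than their spread, and the old replicative group held the lowest mean. In old quiescent libraries 1 to 4, Ddit3 was at 127, 107, 210 and 168 CPM. In old replicative libraries 1 to 4 it was at 76.8, 58.3, 16.9 and 121 CPM. Libraries 1 to 3 of that group lay below all old quiescent libraries, and library 4 lay among them. The 16.9 CPM of replicate 3 rest on 54 counts, with an exact Poisson 95% interval of 12.7 to 22.1 CPM that covers counting error only and lies below every other library.

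In young quiescent libraries 1 to 5, Ddit3 was at 192, 158, 175, 107 and 90.2 CPM. In young replicative libraries 1 to 5 it was at 158, 180, 164, 66.1 and 101 CPM. The 2 young groups covered nearly the same range. In both of them replicates 4 and 5 were the lowest libraries, the same replicates that were highest for Hspa5. In the authors' deposited log2 table, Ddit3 ranged from 6.89 (old replicative replicate 3) to 10.42 (young quiescent replicate 1) and Hspa5 from 13.55 (old replicative replicate 2) to 16.52 (old quiescent replicate 3).

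**Figure D1:**
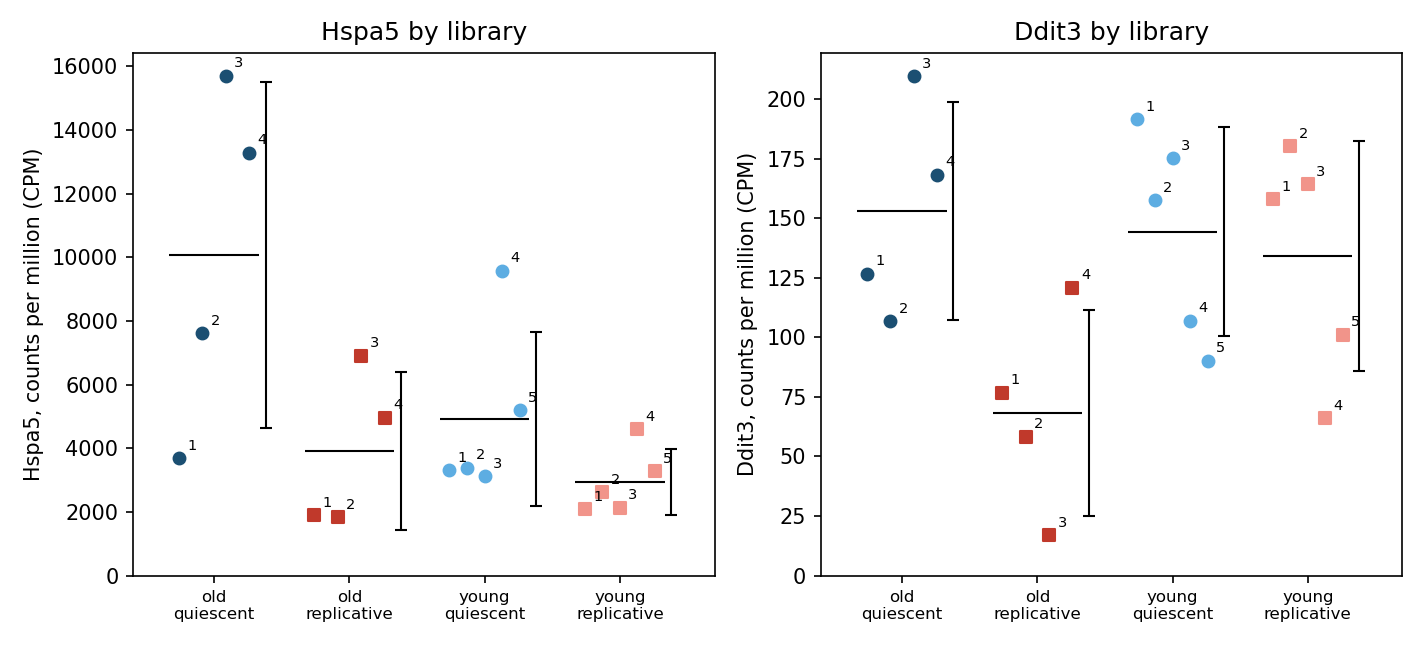
Levels of Hspa5 (left) and Ddit3 (right) in CPM on linear axes from 0, with each point a library marked by its replicate number, the horizontal line the group mean and the bar beside it ± 1 SD (n = 4 in old and n = 5 in young groups). Old quiescent libraries reach 15705 CPM for Hspa5, and the lowest Ddit3 library, old replicative replicate 3, is at 16.9 CPM.

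The first question of the design was what separates replicative from quiescent cells. Hspa5 fell in replicative cells when the effect was averaged over both ages, with a log2 fold change of -1.05 (SE 0.309), 2.08-fold lower (edgeR quasi-likelihood test, Benjamini-Hochberg adjusted p = 0.0250). In that average 14.6% of the 14920 genes tested were called and 6.39% were called lower, so Hspa5 was 1 of 954 lower genes. This model treats the libraries of a batch as independent, since the labels do not tie them together. So do all tests between states given here, except fits with a replicate block, which take same-numbered libraries as a batch. Ddit3 had a value of -0.63 (SE 0.275) and was not called (edgeR adjusted p = 0.131). The Hspa5 call was lost without old quiescent replicate 3 (log2 fold change -0.92, edgeR adjusted p = 0.0692), without old quiescent replicate 4 (-0.98, edgeR adjusted p = 0.0614) or without young quiescent replicate 4 (-0.86, edgeR adjusted p = 0.0568), the 3 quiescent libraries with the highest Hspa5. It was also lost with no low-count filter (-1.07, edgeR adjusted p = 0.0933) and in limma-trend on the deposited log2 values (-0.95, adjusted p = 0.0611). Without old replicative replicate 4, Ddit3 was called too (-0.88, edgeR adjusted p = 0.0265). That fit called more genes of all kinds, 3020 of 15877, beside 2185 of 14920 with all libraries. The 3 fits without a quiescent library named above called fewer, from 1527 of 15455 to 1669 of 14631.

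Within old islets both genes had lower means in replicative cells. Neither was called in the model that treats libraries as independent, where 13.8% of genes were. The log2 fold change was -1.37 (SE 0.464) for Hspa5 (edgeR adjusted p = 0.0536) and -1.16 (SE 0.414) for Ddit3 (edgeR adjusted p = 0.0652). The unadjusted p-values in this edgeR model were 0.00757 and 0.0102. Hspa5 passed the threshold without old quiescent replicate 1 (-1.66), old replicative replicate 3 (-1.81) or 4 (-1.55), or without young quiescent replicate 4 (-1.36) or young replicative replicate 4 (-1.37), with edgeR adjusted p from 0.0157 to 0.0490, and also under upper-quartile scaling (-1.47, edgeR adjusted p = 0.0286). Ddit3 passed it without old replicative replicate 4 (-1.63, edgeR adjusted p = 0.0124). Over all genes, the calls in these fits ran from 1351 of 15437 to 2916 of 15877. The lowest was without old quiescent replicate 1 and the highest without old replicative replicate 4. With all libraries 2053 of 14920 genes were called. Both genes also passed it where same-numbered libraries were taken as a batch, which the labels do not state. With a fixed block, Hspa5 was at -1.40 (edgeR adjusted p = 2.42e-05) and Ddit3 at -1.32 (edgeR adjusted p = 0.0385). With a random block, Hspa5 was at -1.45 (limma-voom adjusted p = 0.00791) and Ddit3 at -1.11 (limma-voom adjusted p = 0.0363). Of 14920 genes, the fixed block called 1957 and the random block 3684 in this comparison. The median gene was itself lower in these fits, at -0.43 with the fixed and -0.46 with the random block. In the model that treats libraries as independent, the median was 0.0098. Fitted on the 8 old libraries alone, where 4.41% of 12250 genes were called, the values were -1.25 for Hspa5 (edgeR adjusted p = 0.238) and -1.07 for Ddit3 (edgeR adjusted p = 0.279).

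Within young islets neither gene was called in the model that treats libraries as independent, where 2.47% of genes were. Hspa5 had a log2 fold change of -0.74 (SE 0.410; edgeR adjusted p = 0.727) and Ddit3 of -0.11 (SE 0.365; edgeR adjusted p = 1.00). Without young quiescent replicate 4 the Hspa5 value was -0.35 (edgeR adjusted p = 1.00). The Ddit3 value changed sign without young quiescent replicate 1 (0.027) or young replicative replicate 4 (0.065). Where same-numbered libraries were taken as a batch, Hspa5 was called with a fixed block (-0.66, edgeR adjusted p = 0.0122). With a random block it was not (-0.76, limma-voom adjusted p = 0.379), and Ddit3 was called with neither. Of 14920 genes, the fixed block called 400 and the random block 475, with median log2 fold changes of -0.076 and -0.12. A p above the threshold does not show that the levels were equal.

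Whether the replication effect depended on age was tested by the interaction, which 0.0268% of genes passed. The old effect minus the young effect was -0.63 (SE 0.612) for Hspa5 (edgeR adjusted p = 0.812) and -1.05 (SE 0.549) for Ddit3 (edgeR adjusted p = 0.547). A difference between ages was thus not shown for either gene. The Hspa5 value was -0.34 without old quiescent replicate 3, between -0.42 and -0.41 without old replicative replicate 1, old replicative replicate 2 or young replicative replicate 4, -1.01 without young quiescent replicate 4 and -1.06 without old replicative replicate 3. The Ddit3 value ran from -1.49 without old replicative replicate 4 to -0.73 without old replicative replicate 3.

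Between ages, quiescent cells of old islets had a higher mean of Hspa5, with a log2 difference of 1.03 (SE 0.431), and no call (edgeR adjusted p = 0.900), where 0.0268% of genes were called. Old quiescent libraries 2 to 4 lay above young quiescent libraries 1 to 3 and 5, but young quiescent replicate 4 at 9582 CPM lay among them. In limma-voom with sample quality weights, which called 10.7% of genes in this comparison, the difference was 1.33 (adjusted p = 0.00297). Ddit3 differed by 0.083 (SE 0.387; edgeR adjusted p = 1.00), a value whose sign turned under RLE scaling (-0.020) and upper-quartile scaling (-0.023), in DESeq2 (-0.020), and without old quiescent replicate 3 (-0.089), young quiescent replicate 4 (-0.014) or young quiescent replicate 5 (-0.052).

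Between replicative cells of the 2 ages, where 7.16% of genes were called, neither gene was. The Hspa5 difference, old minus young, was 0.41 (SE 0.431; edgeR adjusted p = 0.633), and it was -0.019 without old replicative replicate 3. That of Ddit3 was -0.97 (SE 0.396; edgeR adjusted p = 0.142). The Ddit3 difference was -0.65 without old replicative replicate 3, its lowest library (edgeR adjusted p = 0.232), and -1.42 without replicate 4, its highest (edgeR adjusted p = 0.0329). The fit without replicate 4 called 1641 of 15877 genes, beside 1069 of 14920 with all libraries. The comparisons share libraries, so their values are not independent of each other.

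**Figure D2:**
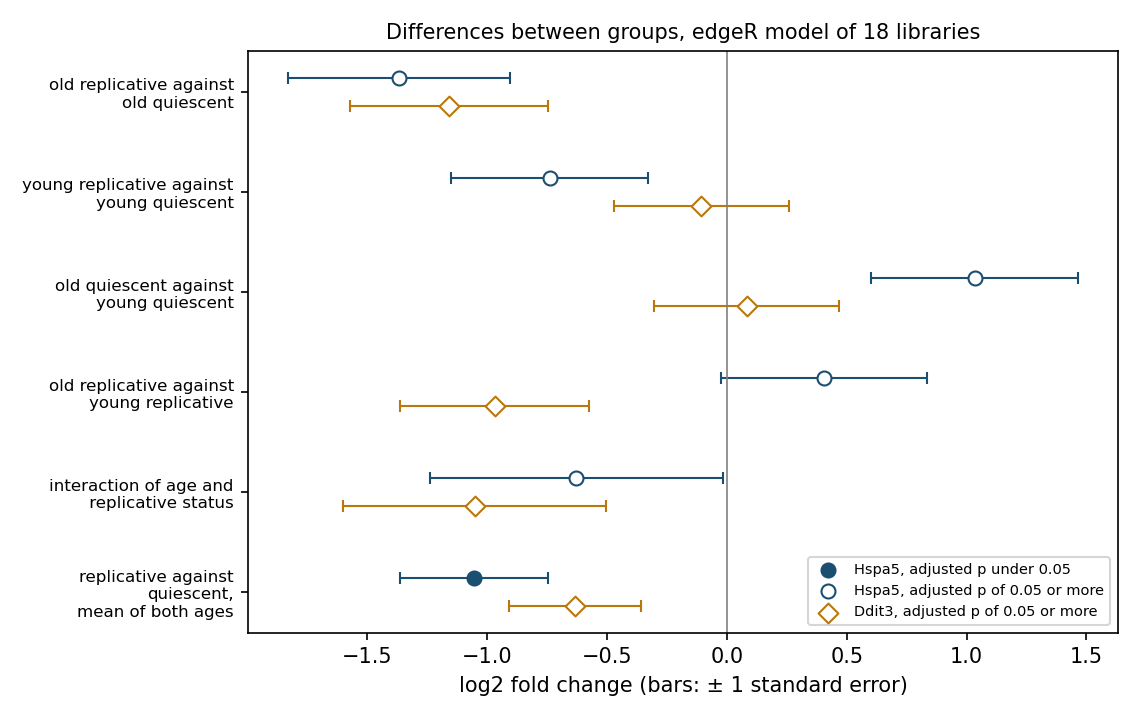
Log2 fold changes (x axis) of Hspa5 (circles) and Ddit3 (diamonds) for the 4 comparisons of groups, the interaction and the average over ages, from the edgeR model of 18 libraries; bars are ± 1 standard error and filled symbols have an adjusted p under 0.05. The filled symbol is Hspa5 in the average over both ages, at -1.05.

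Both genes varied more within groups than most genes with at least a moderate count. The within-group SD of log2 CPM, pooled over the 4 groups, was 0.769 for Hspa5 and 0.721 for Ddit3. The median was 0.424 over 3080 genes whose average log2 CPM was at least 6, and 90.7% of these genes had a smaller SD than Hspa5 and 88.8% a smaller SD than Ddit3. For Hspa5 the old quiescent libraries spread about as widely as the old replicative ones (SD 0.943 and 0.971 of log2 CPM, n = 4 each), although the median gene spread less in old quiescent (0.198) than in old replicative libraries (0.606). For Ddit3 the old replicative group spread the most (SD 1.20, n = 4), against 0.431 to 0.608 in the other groups. The median gene also spread the most in that group (0.606, against 0.198 to 0.342 in the others). That group includes replicate 3, whose Ddit3 level rests on 54 counts.

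A correlation between the levels of the 2 genes was not shown over both ages together. Within an age there are only 4 or 5 libraries of a state, so no correlation is reported there. The ages differed in what their libraries showed: old quiescent replicates 3 and 4 were the highest of their group for both genes, whereas young quiescent replicates 4 and 5 were the highest for Hspa5 and the lowest for Ddit3. Across the 9 quiescent libraries, 1 from each batch of islets, their log2 CPM had a Pearson r of 0.036 (exact permutation p = 0.923) and a Spearman rho of -0.067 (exact permutation p = 0.880), and every adjusted p over the 4 tests of this kind was at least 0.449. Without the 2 libraries farthest from the median of Hspa5, old quiescent replicates 3 and 4, r was -0.76 (exact permutation p = 0.0563, n = 7), so the pooled value rests on those libraries. Across the 9 replicative libraries r was -0.56 (exact permutation p = 0.112, adjusted p = 0.449) and rho -0.15 (exact permutation p = 0.708, adjusted p = 0.923). Without old replicative replicate 3 alone, r was -0.050 (exact permutation, adjusted p = 0.923, n = 8). Without old replicative replicates 3 and 4, r was -0.15 (exact permutation p = 0.739, n = 7).

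The ratio of the 2 counts within a library needs no scaling between libraries. It is not a ratio of molecules, since counts are not per transcript length, but its change between libraries can be read. In young quiescent libraries 1 to 5 there were 17.2, 21.5, 17.8, 89.5 and 57.6 Hspa5 counts per Ddit3 count. In young replicative libraries 1 to 5 there were 13.2, 14.5, 13.0, 69.6 and 32.4. In both groups replicates 4 and 5 stood apart from 1 to 3, whose ratios did not exceed 21.5. Young replicative replicates 4 and 5 also held fewer detected genes at equal depth (14521 and 13915) than replicates 1 to 3 (18746 to 21708), and young quiescent replicates 4 and 5 held 16045 and 16567, beside 16507 to 22219 in replicates 1 to 3. The part of this in the ratio was not tested.

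In old quiescent libraries 1 to 4 there were 29.1, 71.2, 74.8 and 78.9 Hspa5 counts per Ddit3 count. In old replicative libraries 1 to 4 there were 24.7, 31.6, 408 and 41.0. Replicate 1 was the lowest old quiescent library, and replicate 3 was by far the highest old replicative one, through a high Hspa5 level for that group together with the lowest Ddit3 level of the series. The log2 ratio of Ddit3 to Hspa5 averaged -5.89 ± 0.685 in old quiescent libraries (SD, n = 4), -5.91 ± 1.87 in old replicative libraries (SD, n = 4), -5.00 ± 1.09 in young quiescent libraries (SD, n = 5) and -4.48 ± 1.07 in young replicative libraries (SD, n = 5). Replicative minus quiescent, it differed by -0.024 in old and 0.52 in young islets, both within 1 SD. Without old replicative replicate 3 the old difference was 0.90, so this library sets its value. The young difference was 0.15 without young quiescent replicate 4, 0.93 without young replicative replicate 4 and 0.31 to 0.74 without any other young library.

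**Figure D3:**
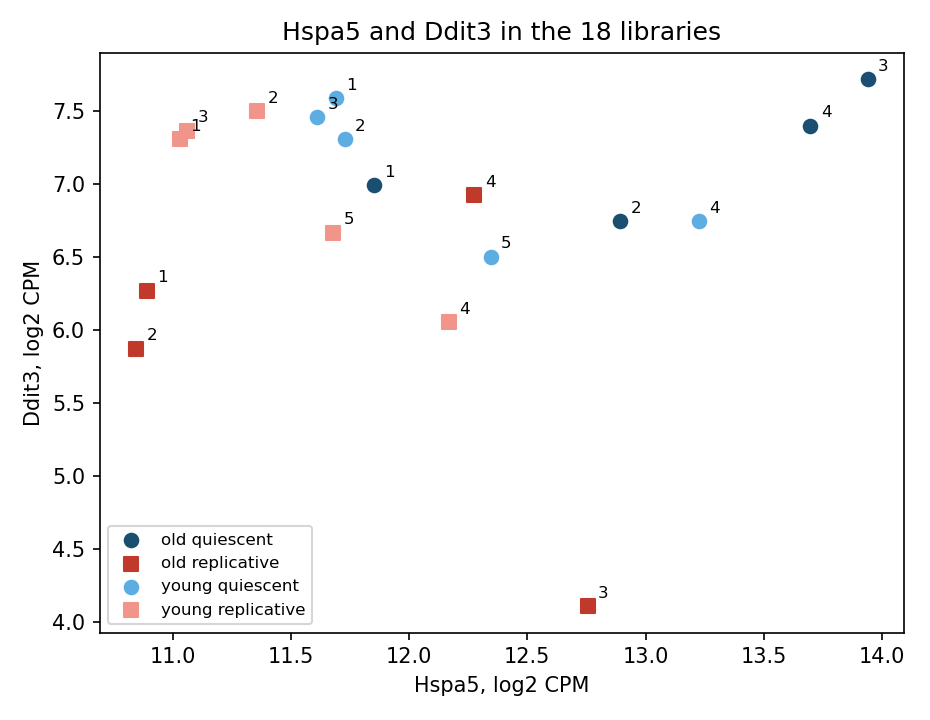
Ddit3 against Hspa5, both in log2 CPM, with each point a library marked by its replicate number, circles for quiescent and squares for replicative groups. Young replicates 4 and 5 lie to the lower right of young replicates 1 to 3 in both states, and old replicative replicate 3 lies at the bottom, at 16.9 CPM of Ddit3.

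Among the other 7795 genes with an average log2 CPM of at least 4, the pattern most like that of Hspa5 over the 18 libraries was that of ENSRNOG00000020950, with a Spearman rho of 0.975, equal to that of another gene. For Ddit3 it was ENSRNOG00000014135, with a rho of 0.858. These rhos are the highest of many and describe the 18 libraries, which share batches of islets. Differences in cell composition between them were not measured.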

How the data were processed

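RNA-seq read counts per Ensembl rat gene, raw and not normalized, were deposited by the authors for 18 libraries, with a second deposited table of log2 values. Recomputation showed each log2 value to be the log2 of the count over a median-of-ratios size factor, plus 1 (largest difference 5.2e-14). The submitters' processing notes name STAR, DESeq2 and build rn6 without role or version. A stranded total RNA kit and a kit for fixed tissue were used, per the labels' protocols; no source at hand names the counting program or its strand setting.

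Counts were fitted in R 4.3.3 with edgeR 4.0.16 (filterByExpr by group with a minimum count of 10, TMM, 4 group means over all 18 libraries, robust quasi-likelihood F test, Benjamini-Hochberg over 14920 genes, threshold 0.05), after a check on simulated data. The simulated data had the same spread for every gene and group and no shared batches, unlike these libraries. The check therefore does not show how the test behaves at their spreads. In it, 30.8% of 52 genes set to a log2 fold change of -1 between the old groups were called. At -2, 97.7% of 43 genes were called. The standard error is the log2 fold change over the square root of F. Log2 CPM used a prior count of 2. Alternatives changed the scaling, filter, depth, tool, libraries fitted and replicate block, and used DESeq2 1.42.0, limma 3.58.1 and statmod 1.5.0. The 2 genes, the lists and the tests were chosen with earlier results of these data known. By the naming rule, these genes and the gene most like each are named. Lists of other unfolded protein response genes and of cell type markers were not run, since 0 of 47357 RefSeq genes at hand carry an Ensembl ID. The 18 libraries come from 9 batches of 2 rats, each giving both states, per the series text. P-values measure the spread between libraries and, except in fits with a replicate block, do not use the sharing of a batch. Promoters come from RefSeq (GRCr8), in which both genes were found by symbol.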

Additional observations from a re-analysis of the deposited data

Results flagged for a closer look

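In old quiescent replicate 1 the log2 ratio of Ddit3 to Hspa5 counts was -4.86, while the other 3 old quiescent libraries lay between -6.30 and -6.15. Its gap to the nearest library was 0.898 of the range of the group, above the critical value of 0.829 for 4 samples. Such a gap arises by chance in about 1 of 20 groups, and 12 sets of values (2 genes and their ratio in 4 groups) were examined, of which this was the 1 past its limit. The library held the lowest Hspa5 level of its group, 3690 CPM, with Ddit3 at 127 CPM.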

How the results depend on the processing

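The series text has both states of a batch sequenced, but the labels, which repeat replicate numbers between states, do not say that a number marks a batch. Deviations of same-numbered libraries from their group means correlated at 0.0714 to 0.506 over genes, above 0.1 in 7 of 9 pairs. By this measure 17 of 18 libraries correlated best with their own number. Over genes with a mean log2 CPM of at least 4 the same-numbered pairs correlated at 0.0846 to 0.521. There each library correlated best with its own number. These values are a hint from the data on what the number marks. With a fixed replicate block in edgeR, Hspa5 was called in old (-1.40, adjusted p = 2.42e-05) and young islets (-0.66, adjusted p = 0.0122) and Ddit3 in old islets (-1.32, adjusted p = 0.0385). With a random replicate block in limma-voom the old values were -1.45 for Hspa5 (adjusted p = 0.00791) and -1.11 for Ddit3 (adjusted p = 0.0363), and Hspa5 in young islets was not called (-0.76, adjusted p = 0.379). Neither block changed another call. The fixed block moved the count of called genes from 2053 to 1957 in old and from 368 to 400 in young islets. The random block gave 3684 and 475. In old islets the median log2 fold change over all genes was -0.43 with the fixed and -0.46 with the random block.

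Leaving out each library in turn, the log2 fold change ranged from -1.28 to -0.86 for Hspa5 averaged over ages, -1.81 to -1.09 in old islets, -0.96 to -0.35 in young islets, 0.74 to 1.42 between quiescent and -0.019 to 0.63 between replicative cells. For Ddit3 these ranges were -0.88 to -0.50, -1.63 to -0.86, -0.25 to 0.065, -0.089 to 0.23 and -1.42 to -0.65. The correlation of the genes ranged from -0.34 to 0.19 across quiescent and from -0.70 to -0.050 across replicative libraries. The interaction ranged from -1.06 to -0.34 for Hspa5 and from -1.49 to -0.73 for Ddit3.

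The Hspa5 average over ages was not called with no low-count filter (-1.07) or in limma-trend on the deposited values (-0.95). Upper-quartile scaling called Hspa5 in old islets (-1.47), and limma-voom with quality weights called its difference between quiescent cells (1.33). Ddit3 changed sign in young islets in limma-voom with quality weights (0.13), and between quiescent cells under RLE (-0.020), upper-quartile scaling (-0.023) and DESeq2 (-0.020). The quiescent correlation turned negative under RLE scaling (-0.060), with deposited log2 values (-0.059) and centred on each age (-0.035). The cause of these changes was not tested.

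Counts of genes called over all genes moved by more than 1.5 times under some alternatives: 540 in the old and 786 in the young fit of 2 groups alone, against 2053 and 368. Ranges over all alternatives were 540 to 3684 in old islets, 293 to 2952 in young islets, 0 to 1589 between quiescent cells, 62 to 2251 between replicative cells, 0 to 291 for the interaction and 1527 to 3759 for the average over ages. Those 2 had no fit of 2 groups.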

Other observations

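By replicate number, whose meaning as a batch the labels do not state, Hspa5 was lower in the replicative than in the quiescent library of the same number in 9 of 9 cases, as were 766 of 14920 genes (5.13%). The log2 CPM differences were -0.96, -2.05, -1.18 and -1.42 for old numbers 1 to 4 and -0.66, -0.37, -0.55, -1.06 and -0.67 for young numbers 1 to 5. Ddit3 was lower in 7 of 9, with differences of -0.72, -0.87, -3.61 and -0.48 in old and -0.28, 0.19, -0.094, -0.69 and 0.17 in young islets. The quiescent and the replicative library of a number lay on the same side of their group means in 9 of 9 cases for Hspa5 and in 6 of 9 for Ddit3. Same-numbered libraries also deviated together over all genes, with correlations of 0.0714 to 0.506. The shares of all genes lower in 7 of 9 cases, or on the same side this often, were not computed. These counts are thus not shown to be particular to either gene.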
